A study of Homo sapiens with 6 samples.

Results

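The genes described here encode the machinery that brings newly made proteins into the endoplasmic reticulum (ER), attaches N-glycans to them and folds them. They are the subunits of the Sec61 translocon with SEC62 and SEC63, the translocon-associated protein (TRAP) complex, the signal recognition particle (SRP) and its receptor, signal peptidase, the oligosaccharyltransferase (OST), the ER chaperones and disulfide enzymes, the sensors of the unfolded protein response (UPR) with XBP1, and 4 genes of ER-associated degradation. They were listed by symbol for their function, with earlier results of these data known, and number 54 of the 29908 genes in the deposited table. Counts over them describe the list and do not test it. All 54 were in the table, and all 54 were among the 14221 genes tested. SSR3 and RPN1 are also among the genes that the study selected from these same libraries together with public tumour data. Their direction is therefore not independent evidence.

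A protein bound for secretion carries a signal peptide that SRP recognises as it leaves the ribosome, and the SRP receptor hands the ribosome to the Sec61 channel in the ER membrane. While the chain passes through, signal peptidase removes the signal peptide, OST transfers a preformed glycan to asparagine residues, and chaperones and disulfide isomerases fold the product, with misfolded chains returned to the cytosol for degradation. Liver cells secrete most plasma proteins and depend heavily on this route, and the UPR raises the levels of many of these genes when unfolded protein accumulates.

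Expression was measured by mRNA sequencing in Hep3B, an established human hepatocellular carcinoma cell line, to learn which genes respond to reduced DAGLA, the gene of diacylglycerol lipase alpha. Hep3B-Con cells (n = 3 libraries) had received a control lentivirus, which the series record calls an empty vector and the sample titles shControl, and Hep3B-KD cells (n = 3) a lentivirus with a short hairpin RNA (shRNA) against DAGLA. Both were infected at a multiplicity of infection of 5 and selected with puromycin, so that both groups shared infection and selection. The study mentions negative sequences bought with its plasmids, but its list of hairpin sequences gives none for the control. Whether the control virus carries a hairpin of its own is thus not clear from the records, so an effect of any hairpin and that of the DAGLA sequence cannot be told apart. A single hairpin was used in these libraries, and the replicates are called biological, but nothing in the records says that they came from separate infections, so p-values measure the spread between these libraries, which may be technical.

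DAGLA itself, the targeted gene (ENSG00000134780), had 9.42, 9.40 and 9.02 FPKM (read counts scaled by gene length and library size) in the Hep3B-Con libraries and 4.62, 4.46 and 4.78 FPKM in the Hep3B-KD libraries. The groups did not overlap, and the log2 fold change was -0.99 ± 0.0441 (SE, adjusted p = 5.25e-06, limma). The libraries held between 15861039 and 17572714 reads on genes. All 10 markers of hepatocytes and hepatocellular carcinoma that were checked were expressed, with mean levels in Hep3B-Con from 21.3 to 2135 FPKM, and 9 of the 10 were higher in Hep3B-KD. Mean levels of the endothelial markers were at or below 0.197 FPKM in Hep3B-Con, and PTPRC, which defines leukocytes, was at or below 0.0377 FPKM there. The endothelial markers, too low to be tested, summed to 0.194 to 0.217 FPKM in Hep3B-Con and 0.278 to 0.385 FPKM in Hep3B-KD, mostly from PECAM1. The 3 leukocyte markers analysed summed to 2.15 to 3.25 FPKM in Hep3B-Con and 3.10 to 3.995 FPKM in Hep3B-KD, mostly from LYZ. The 5 fibroblast markers summed to 9.28 to 10.2 FPKM in Hep3B-Con and 5.48 to 5.96 FPKM in Hep3B-KD, mostly from LUM and PDGFRB, and the 3 of them that were tested were lower. Their part in the results was not tested. CD3E and CD68 were not analysed here.

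Most of the 54 genes were lower in Hep3B-KD. At an adjusted p under 0.05 (limma, Benjamini-Hochberg over all 14221 genes), 37 of the 54 (68.5%) were lower, 7 were higher and 10 were not called. Over all genes tested 59.9% were called, 23.8% lower and 36.1% higher, so the 54 genes were called lower more often, and called higher less often, than genes at large. The median log2 fold change was -0.30 for the 54 genes and 0.11 for all genes tested, and 45 of the 54 lay below the median of all genes. The groups overlapped in 7 of the 54 genes, and elsewhere Hep3B-KD lay below in 39 (26.3% of all genes tested) and above in 8 (40.7% of all genes tested). Every log2 fold change here is Hep3B-KD against Hep3B-Con on log2(FPKM + 0.1).

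The falls were mostly moderate. The 3 genes past a 2-fold change, RPN1, ERN1 and HERPUD1, were all lower (2.94% of all genes tested were lower by at least 2-fold), and none of the 54 was higher by that much (5.89% of all genes). The 54 genes together made up 1.39% ± 0.0158 (SD, n = 3) of the FPKM sum of the Hep3B-Con libraries and 1.16% ± 0.00628 of that of the Hep3B-KD libraries. Since these are bulk samples, fewer cells with a given transcript and less of it per cell cannot be told apart.

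Genes of high level fell more often than others in these libraries, and many of the 54 are of high level. The median of their mean levels was 27.5 FPKM, against 4.92 FPKM for all genes tested. Of the 1648 genes tested at or above 27.5 FPKM, 51.0% were called lower, and their median log2 fold change was -0.10. Among the 27 of the 54 genes at or above that level, 21 (77.8%) were lower, with a median of -0.36. Below that level 20.3% of all 12573 genes were lower with a median of 0.15, and of the other 27 genes 16 (59.3%) were lower, with a median of -0.24. Counts per role below can be read against these shares, but the roles were not matched for level.

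**Figure D1:**
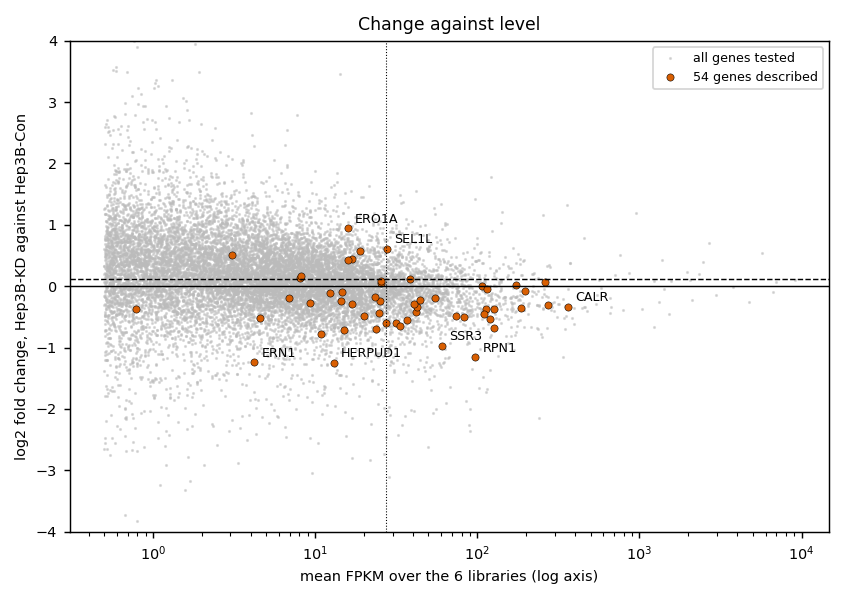
Log2 fold change of Hep3B-KD against Hep3B-Con (vertical axis) against the mean FPKM over the 6 libraries (horizontal axis, log scale) for all genes tested (grey) and the 54 genes described (orange). The dashed line is the median of all genes, 0.11, and the dotted line the median level of the 54 genes, 27.5 FPKM; 45 of the 54 lie below the dashed line, and 5 genes outside the range from -4 to 4 are not drawn.

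**Figure D2:**
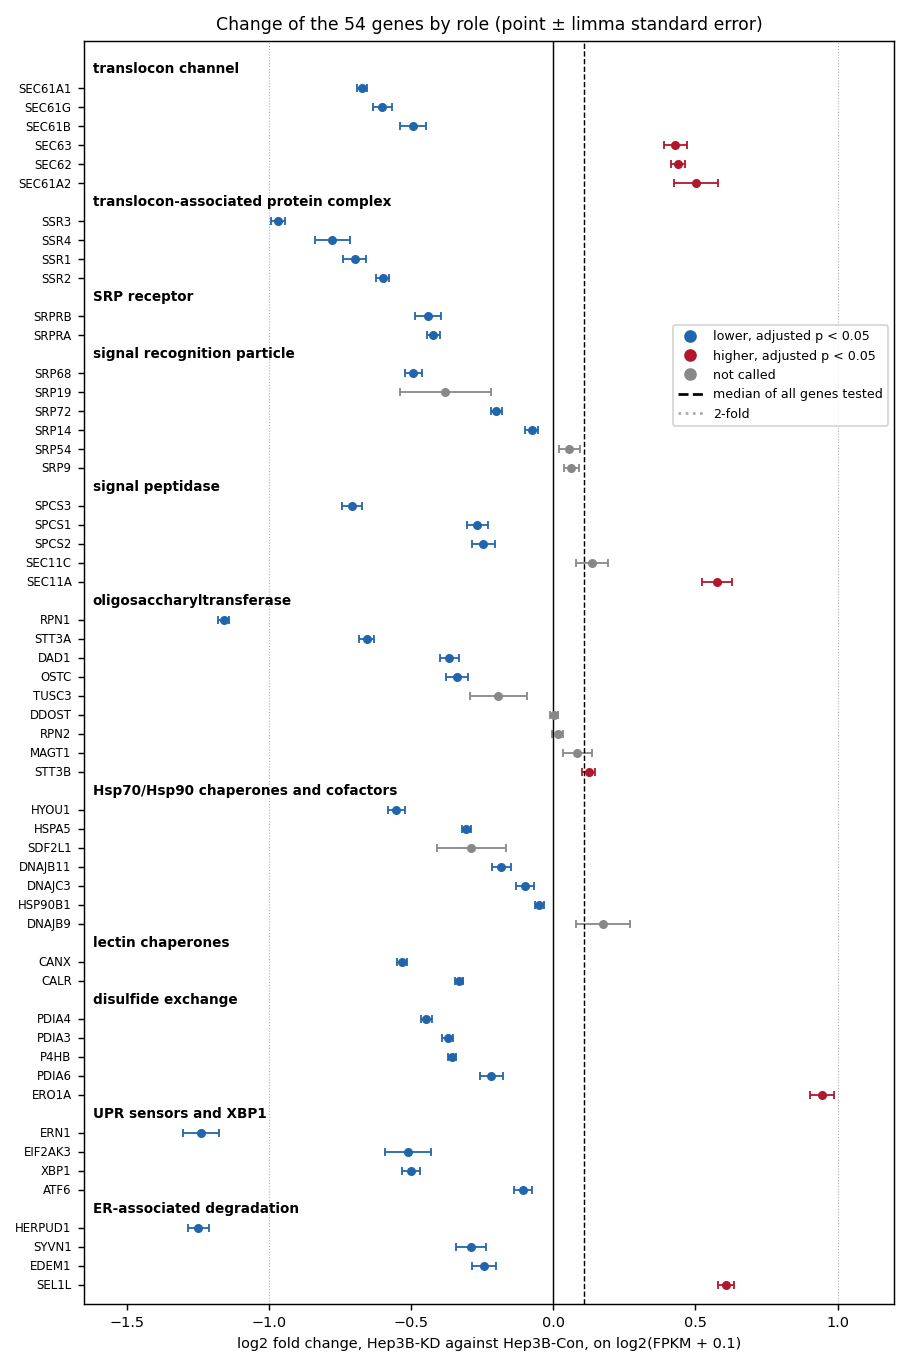
Log2 fold change of each of the 54 genes (point) with its limma standard error (bar), grouped by role, on the log2(FPKM + 0.1) scale. Blue points were called lower, red points higher and grey points not called; all 4 TRAP subunits lie left of 0, and the red points include SEC62, SEC63, SEC61A2, SEC11A, ERO1A and SEL1L.

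The channel itself split by subunit. The 3 subunits of the main Sec61 channel, SEC61A1, SEC61B and SEC61G, were lower in Hep3B-KD, and SEC62 and SEC63, which assist the channel in taking up completed chains, were higher together with SEC61A2, a second form of the pore subunit. SEC61A1, which forms the pore, had 153, 155 and 158 FPKM in Hep3B-Con and 97.6, 96.2 and 98.0 FPKM in Hep3B-KD. The groups did not overlap, and the log2 fold change was -0.67 ± 0.0182 (SE, adjusted p = 7.62e-07). SEC61A2 had 2.514, 2.586 and 2.501 FPKM in Hep3B-Con and 3.93, 3.29 and 3.69 FPKM in Hep3B-KD, again without overlap, with a log2 fold change of 0.50 ± 0.0771 (SE, adjusted p = 0.00136). Of the exon length of SEC61A2, 9.88% overlaps NUDT5 on the other strand, which had 10.8 FPKM, and the strand of the libraries is not stated, so part of its reads, and of the ratio that follows, may belong to NUDT5. SEC61A2 remained the minor form. The ratio of SEC61A1 to SEC61A2, both in FPKM, was 60.81, 59.97 and 63.08 in Hep3B-Con and 24.8, 29.2 and 26.5 in Hep3B-KD (exact permutation test, two-sided, p = 0.1, which is the smallest p possible with 3 against 3). The small subunits SEC61G and SEC61B had log2 fold changes of -0.60 and -0.49, and SEC62 and SEC63 of 0.44 and 0.43. The channel group as a whole took 1.35-fold less of the FPKM sum in Hep3B-KD.

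All 4 subunits of the TRAP complex, which sits beside the channel and helps certain signal peptides to open it, were lower in Hep3B-KD, with a median log2 fold change of -0.74. SSR3 had 78.7, 79.8 and 82.4 FPKM in Hep3B-Con and 41.7, 40.8 and 40.4 FPKM in Hep3B-KD. The Hep3B-KD values lay far below the Hep3B-Con values, with a log2 fold change of -0.97 ± 0.0248 (SE, adjusted p = 6.31e-07), just short of 2-fold. The study counted SSR3 among its genes with a fold change of at least 2. SSR2, the subunit with the smallest change, had 32.7, 32.4 and 33.2 FPKM in Hep3B-Con and 21.4, 21.7 and 21.7 FPKM in Hep3B-KD. The log2 change was -0.60 ± 0.0228 (SE, adjusted p = 2.90e-06). SSR1 and SSR4 lay between, at -0.70 and -0.78. The complex together fell from 0.0581% ± 0.000819 (SD, n = 3) to 0.0336% ± 0.000310 of the FPKM sum, a 1.73-fold difference and the largest of the 11 role groups.

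Both subunits of the SRP receptor fell by nearly the same amount, SRPRA with a log2 fold change of -0.42 and SRPRB, its membrane anchor, of -0.44. SRPRB had 29.1, 27.4 and 29.4 FPKM in Hep3B-Con and 21.5, 21.8 and 19.9 FPKM in Hep3B-KD, without overlap (SE of the log2 change 0.0451, adjusted p = 0.000190). SRPRA stood at 48.2 ± 0.689 FPKM (SD, n = 3) in Hep3B-Con and 35.9 ± 0.676 FPKM in Hep3B-KD.

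The protein subunits of SRP itself moved less. SRP68, SRP72 and SRP14 were called lower, SRP9, SRP54 and SRP19 were not called, and the group took a nearly equal share of the FPKM sum, 0.211% ± 0.00541 (SD, n = 3) in Hep3B-Con and 0.210% ± 0.00214 in Hep3B-KD. SRP68 had 23.0, 22.8 and 24.1 FPKM in Hep3B-Con and 16.7, 16.3 and 16.7 FPKM in Hep3B-KD, with a log2 fold change of -0.49 ± 0.031 (SE, adjusted p = 2.10e-05). SRP72, which binds SRP68 in the particle, had a log2 fold change of -0.20. SRP9 and SRP14, which form the end of SRP that pauses translation, were the most abundant, with SRP9 between 247 and 265 FPKM in Hep3B-Con and between 264 and 269 FPKM in Hep3B-KD. SRP14 was lower by 0.08 on the log2 scale only (adjusted p = 0.0260). SRP54, which binds the signal peptide, had a log2 difference of 0.06 (adjusted p = 0.238), and the groups overlapped. SRP9 and SRP54 had values of -0.04 and -0.05 when libraries were centred on their median log ratio, and SRP9, SRP54 and SRP14 had positive values under quantile normalization. SRP19 had the lowest FPKM of the 54 genes, with 102 to 167 reads per library and 0.898 ± 0.0550 FPKM in Hep3B-Con. Of its exon length, 14.0% overlaps ZRSR2P1 on the same strand, a gene without a value here, and the effect of this overlap on its level was not tested.

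In signal peptidase the 3 accessory subunits were lower, and of the catalytic subunits SEC11A was higher and SEC11C was not called. SPCS3, an accessory subunit needed for activity, had 19.0, 18.8 and 18.3 FPKM in Hep3B-Con and 11.7, 11.6 and 11.0 FPKM in Hep3B-KD, with a log2 fold change of -0.71 ± 0.0355 (SE, adjusted p = 8.29e-06). SEC11A, a catalytic subunit, went the other way, from 15.4, 16.2 and 14.1 FPKM in Hep3B-Con to 23.0, 22.9 and 22.2 FPKM in Hep3B-KD. The log2 change was 0.58 ± 0.0528 (SE, adjusted p = 0.000112), and the groups of both genes did not overlap. The alternative catalytic subunit SEC11C stood at 7.72 ± 0.494 FPKM in Hep3B-Con and 8.49 ± 0.264 FPKM in Hep3B-KD (adjusted p = 0.0723). The ratio of SEC11A to SEC11C was 1.89, 2.25 and 1.79 in Hep3B-Con and 2.62, 2.74 and 2.67 in Hep3B-KD (two-sided exact permutation test, p = 0.1). SPCS1 and SPCS2 were lower, with log2 fold changes of -0.27 and -0.25. Of the exon length of SPCS1, 50.7% overlaps NEK4 on the other strand, and the strand of the libraries is not stated, so reads of the pair cannot be told apart.

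The OST complex did not move as a unit. RPN1, STT3A, DAD1 and OSTC were lower, STT3B was higher, and RPN2, DDOST, MAGT1 and TUSC3 were not called. RPN1, also known as ribophorin I, which guides some membrane proteins to the catalytic subunit, fell most. It had 133, 135 and 134 FPKM in Hep3B-Con and 59.0, 61.2 and 59.7 FPKM in Hep3B-KD. The values within a group lay within a few FPKM of each other, and the log2 fold change was -1.16 ± 0.0193 (SE, adjusted p = 1.32e-07), or 2.24-fold lower. Its partners in the core of the complex stayed level. RPN2 had 170, 175 and 175 FPKM in Hep3B-Con and 173, 175 and 177 FPKM in Hep3B-KD (log2 fold change 0.02, adjusted p = 0.499), and DDOST had 107, 106 and 107 FPKM in Hep3B-Con and 107, 107 and 107 FPKM in Hep3B-KD (log2 fold change 0.0027, adjusted p = 0.885). These last calls rest on the scaling of the libraries. RPN2 and DDOST were called lower with values of -0.09 and -0.10 when libraries were centred on their median log ratio, and called higher with 0.21 and 0.18 under quantile normalization. RPN1 was lower by at least 2-fold under every alternative listed in the closing section.

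The balance of the catalytic subunits changed. STT3A, which glycosylates chains as they enter through the channel, had 40.7, 40.8 and 40.5 FPKM in Hep3B-Con and 26.6, 25.1 and 25.7 FPKM in Hep3B-KD, with a log2 fold change of -0.66 ± 0.0266 (SE, adjusted p = 3.69e-06). STT3B, which acts on sites that STT3A skipped, had 36.8, 36.9 and 36.9 FPKM in Hep3B-Con and 40.9, 39.2 and 40.5 FPKM in Hep3B-KD. Its log2 fold change of 0.12 ± 0.0236 (SE, adjusted p = 0.00371) was close to the median of all genes, 0.11, and was not called when libraries were centred on their median log ratio (0.02, adjusted p = 0.490). The ratio of STT3A to STT3B was 1.11, 1.11 and 1.10 in Hep3B-Con and 0.650, 0.642 and 0.634 in Hep3B-KD (two-sided exact permutation test, p = 0.1). By FPKM, STT3A thus was the higher in all 3 Hep3B-Con libraries and STT3B in all 3 Hep3B-KD libraries. An order between 2 genes depends on the gene lengths used for scaling. In reads, without that scaling, STT3A had 4982 to 5294 in Hep3B-Con and STT3B 3079 to 3237. In Hep3B-KD they had 2983 to 3154 and 3152 to 3372. OSTC, which ties the STT3A form to the channel, had a log2 fold change of -0.34, and DAD1, a subunit of both forms, of -0.37. MAGT1 and TUSC3, the oxidoreductase subunits of the STT3B form, stood at 24.7 ± 1.18 and 7.40 ± 0.717 FPKM (SD, n = 3) in Hep3B-Con and at 26.2 ± 1.42 and 6.46 ± 0.721 FPKM in Hep3B-KD. Their ratio did not separate the groups (two-sided exact permutation test, p = 0.2).

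**Figure D3:**
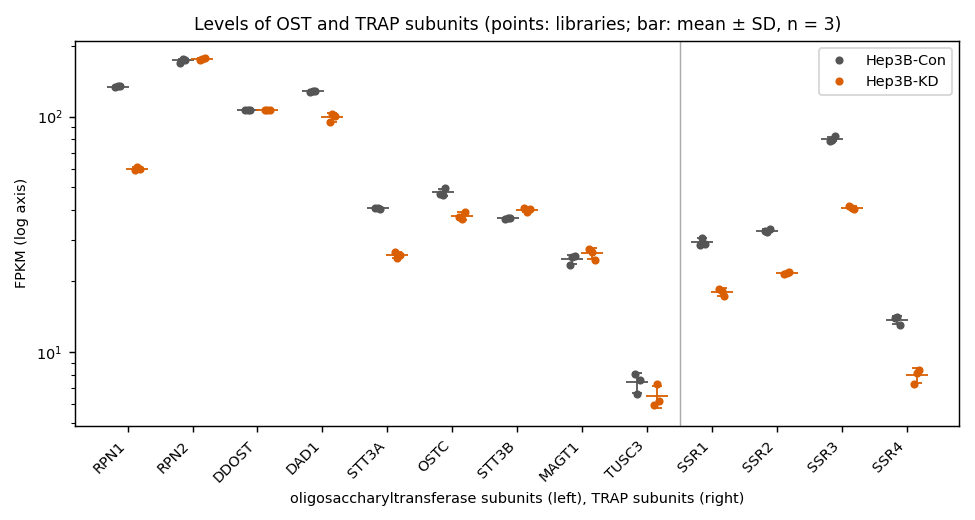
FPKM (log axis) of the OST subunits (left) and TRAP subunits (right) in the 3 Hep3B-Con (grey) and 3 Hep3B-KD (orange) libraries, with the mean ± SD of each group as a bar. RPN1, STT3A and the 4 SSR genes separate the groups widely, whereas the points of RPN2 and DDOST coincide.

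Of the chaperones of the Hsp70 and Hsp90 families and their cofactors, 5 of 7 were called lower and none higher. Over all genes tested 23.8% were lower, and 51.0% of those at or above 27.5 FPKM. HYOU1, which exchanges nucleotide on the Hsp70 chaperone HSPA5, had 42.7, 43.5 and 45.4 FPKM in Hep3B-Con and 30.4, 29.5 and 29.7 FPKM in Hep3B-KD. Its log2 fold change of -0.55 ± 0.0296 (SE, adjusted p = 1.10e-05) was the largest of the group. HSPA5, also called BiP or GRP78 and the main Hsp70 of the ER, stood at 303 ± 4.03 FPKM (SD, n = 3) in Hep3B-Con and 245 ± 1.01 FPKM in Hep3B-KD, with a log2 difference of -0.31 (adjusted p = 7.57e-06), which was -0.097 under quantile normalization. HSP90B1, the ER Hsp90, differed by only -0.05 (adjusted p = 0.0299), and was higher at 0.13 under quantile normalization. Among the DNAJ cofactors of HSPA5, DNAJB11 and DNAJC3 had log2 fold changes of -0.18 and -0.10 (adjusted p = 0.00273 and 0.0321), and DNAJB9 of 0.17 (adjusted p = 0.157) with overlapping groups. Neither HSP90B1 nor DNAJC3 was called when libraries were rescaled to the same FPKM sum, or with a replicate block. SDF2L1 had 54.4, 38.9 and 41.5 FPKM in Hep3B-Con and 34.4, 37.0 and 37.9 FPKM in Hep3B-KD. Its first Hep3B-Con value stood well above the other two, and the gene was not called (log2 fold change -0.29, adjusted p = 0.0803) although the groups did not overlap.

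Both lectin chaperones, which hold chains by their newly added glycans, were called lower, CALR not under every scaling. CANX, the membrane-bound calnexin, had 141, 143 and 142 FPKM in Hep3B-Con and 98.3, 99.2 and 96.7 FPKM in Hep3B-KD, with a log2 fold change of -0.53 ± 0.0169 (SE, adjusted p = 1.44e-06). CALR, the soluble calreticulin, was the most abundant of the 54 genes per length, with 404 ± 3.16 FPKM (SD, n = 3) in Hep3B-Con and 321 ± 3.82 FPKM in Hep3B-KD. The log2 change was -0.33, and under quantile normalization it was -0.054 and not called (adjusted p = 0.0755).

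All 4 disulfide isomerases were called lower, and the oxidase that recharges them was higher. PDIA4 had 129, 126 and 127 FPKM in Hep3B-Con and 93.6, 91.7 and 95.2 FPKM in Hep3B-KD, with a log2 fold change of -0.45 ± 0.0202 (SE, adjusted p = 5.64e-06). PDIA3, P4HB and PDIA6 had log2 fold changes of -0.37, -0.36 and -0.22. Under quantile normalization these were smaller, at -0.18, -0.19 and -0.10, and PDIA6 was not called (adjusted p = 0.0749). ERO1A, the oxidase, had 10.2, 11.3 and 10.9 FPKM in Hep3B-Con and 21.1, 20.7 and 20.8 FPKM in Hep3B-KD. This was the largest rise among the 54 genes, with a log2 fold change of 0.94 ± 0.0428 (SE, adjusted p = 5.70e-06), or 1.93-fold, and without overlap.

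The UPR sensors ERN1 and EIF2AK3 and the factor XBP1 were lower, and the call of the sensor ATF6 was weak. ERN1, which encodes the sensor IRE1 alpha that splices XBP1 mRNA, had 5.77, 5.93 and 6.20 FPKM in Hep3B-Con and 2.31, 2.49 and 2.61 FPKM in Hep3B-KD. The groups lay far apart, and the log2 fold change was -1.24 ± 0.0635 (SE, adjusted p = 9.09e-06), or 2.41-fold lower, with 398 to 1122 reads behind each value. EIF2AK3, which encodes the sensor kinase PERK, stood at 5.39 ± 0.499 FPKM (SD, n = 3) in Hep3B-Con and 3.75 ± 0.227 FPKM in Hep3B-KD, with a log2 difference of -0.51 (adjusted p = 0.00152). ATF6, the sensor that is cut in the Golgi to release a transcription factor, had the smallest difference, 13.05, 12.80 and 12.79 FPKM against 11.8, 11.8 and 12.3 FPKM, with a log2 fold change of -0.11 ± 0.0315 (SE, adjusted p = 0.0242). It was not called when libraries were rescaled to the same FPKM sum (-0.08, adjusted p = 0.0679), with a replicate block (adjusted p = 0.0686), or without any of 5 of the 6 libraries taken singly. XBP1, the transcription factor made from the spliced mRNA, had a log2 difference of -0.50 (adjusted p = 2.33e-05). Values per gene do not tell spliced from unspliced XBP1 mRNA.

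Of the genes of ER-associated degradation, HERPUD1 fell the most of all 54 genes and SEL1L rose. HERPUD1, a membrane protein induced by the UPR that joins the degradation complex, had 18.3, 18.2 and 18.7 FPKM in Hep3B-Con and 7.52, 8.03 and 7.53 FPKM in Hep3B-KD. The log2 fold change was -1.25 ± 0.0371 (SE, adjusted p = 1.12e-06), or 2.39-fold lower. SEL1L, the scaffold of the ubiquitin ligase SYVN1, had 21.3, 22.1 and 22.5 FPKM in Hep3B-Con and 34.0, 33.1 and 33.5 FPKM in Hep3B-KD, with a log2 fold change of 0.61 ± 0.0287 (SE, adjusted p = 6.64e-06). The ligase SYVN1 itself moved the other way, with a log2 fold change of -0.29, as did EDEM1, a mannosidase-like protein that marks glycoproteins for degradation, with -0.24.

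**Figure D4:**
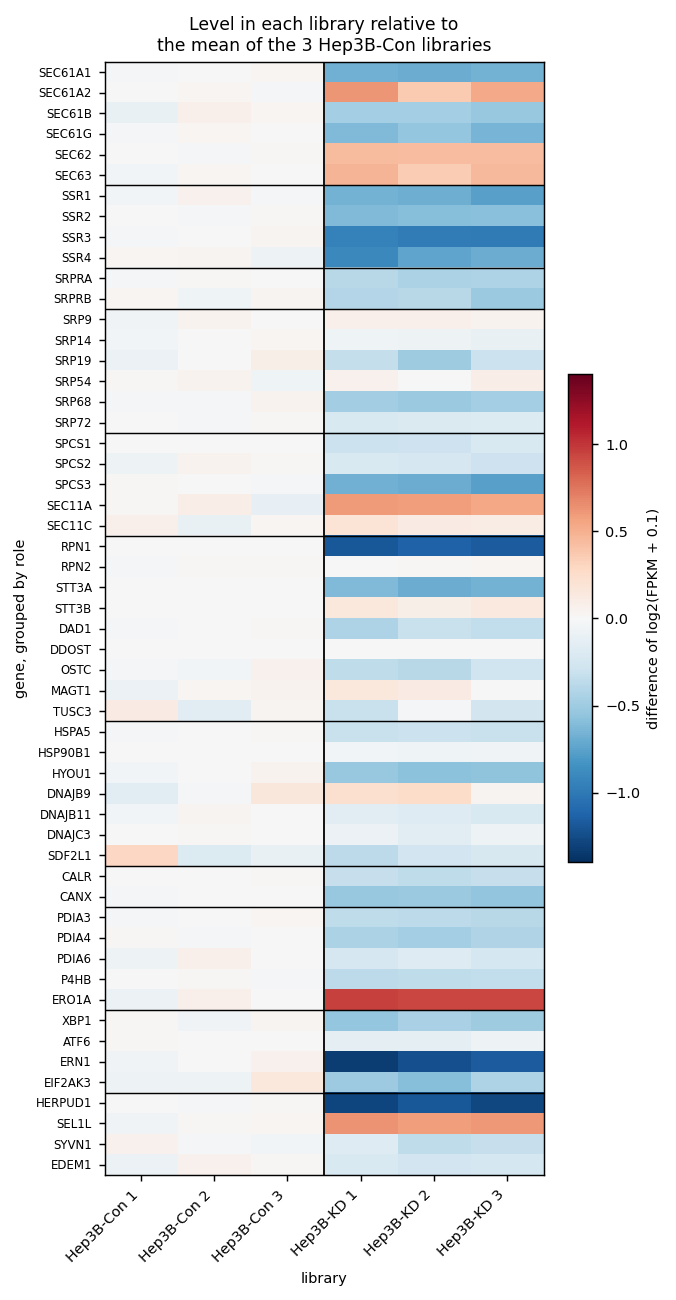
Difference of log2(FPKM + 0.1) from the mean of the 3 Hep3B-Con libraries for each of the 54 genes (rows, grouped by role) in each of the 6 libraries (columns); blue is lower and red higher. The 3 Hep3B-KD libraries resemble each other in nearly every row, and SDF2L1 in the first Hep3B-Con library is the strongest colour among the controls.

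The start regions of the chaperone genes were read for the elements through which ATF6 and XBP1 act. RefSeq windows of 300 bases (250 before and 50 after the start, GRCh38.p14) were matched for 48 of the 54 genes, and those of PDIA3, TUSC3, SRPRA, STT3B, SPCS1 and RPN1 were not. The ER stress response element (ERSE) was searched as CCAAT, any 9 bases, then CCACG, on both strands. It was found in 6 of the 48 genes (12.5%), against 0.171% of the 9353 tested genes with a window and 27 of all 35114 windows. The 6 genes, HSPA5, HSP90B1, CALR, CANX, PDIA6 and XBP1, were called lower, but under quantile normalization CALR and PDIA6 were not called (-0.054 and -0.10) and HSP90B1 was higher (0.13). The shorter ERSE-II, searched as ATTGG, any base, then CCACG, was found in HERPUD1, HYOU1 and SDF2L1 (6.25% of the 48, against 0.150% of tested genes). Many of the 54 genes are known to be raised by the UPR, and ATF6 and XBP1 act through these elements. The shares of the elements here and below therefore follow from how the genes were listed, and they test nothing. Sequences of these genes are shown because they hold the matches the next values turn on, 5′ to 3′ on the strand of the gene, with the fixed bases of each element in capitals, read as the reverse complement in CALR, HYOU1, SDF2L1 and the second match of HSP90B1. The window of HSPA5 (chr9:125241294-125241593, minus strand) and that of HERPUD1 (chr16:56931892-56932191, plus strand) are given whole, and the others as the element with 20 bases on each side: XBP1 (chr22:28800583-28800641, minus strand), CALR (chr19:12938364-12938422, plus strand), CANX (chr5:179698758-179698816, plus strand), PDIA6 (chr2:10812833-10812891, minus strand), HSP90B1 (2 matches, chr12:103930196-103930254 and chr12:103930301-103930359, plus strand), HYOU1 (2 matches, chr11:119057254-119057304 and chr11:119057360-119057410, minus strand) and SDF2L1 (chr22:21642094-21642144, plus strand).
HSPA5: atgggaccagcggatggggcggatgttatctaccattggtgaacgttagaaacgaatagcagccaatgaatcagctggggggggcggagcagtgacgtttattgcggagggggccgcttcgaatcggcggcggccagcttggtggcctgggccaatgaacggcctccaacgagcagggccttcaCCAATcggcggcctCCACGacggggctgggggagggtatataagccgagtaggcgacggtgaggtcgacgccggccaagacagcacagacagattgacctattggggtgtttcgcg
HERPUD1: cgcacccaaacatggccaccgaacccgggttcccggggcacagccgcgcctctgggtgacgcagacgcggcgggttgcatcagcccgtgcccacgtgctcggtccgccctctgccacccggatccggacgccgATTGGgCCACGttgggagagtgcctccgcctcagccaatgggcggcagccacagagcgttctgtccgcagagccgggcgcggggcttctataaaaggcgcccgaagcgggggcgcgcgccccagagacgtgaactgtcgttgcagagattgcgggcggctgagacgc
XBP1: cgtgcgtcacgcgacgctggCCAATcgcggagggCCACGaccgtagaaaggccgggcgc
CALR: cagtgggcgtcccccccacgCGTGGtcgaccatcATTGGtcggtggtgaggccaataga
CANX: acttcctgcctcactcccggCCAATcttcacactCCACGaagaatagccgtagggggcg
PDIA6: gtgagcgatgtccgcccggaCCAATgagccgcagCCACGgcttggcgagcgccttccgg
HSP90B1 match at 103930196: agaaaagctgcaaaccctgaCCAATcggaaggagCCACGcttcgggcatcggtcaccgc
HSP90B1 match at 103930301: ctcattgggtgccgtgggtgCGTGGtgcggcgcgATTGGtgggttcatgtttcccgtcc
HYOU1 match at 119057254: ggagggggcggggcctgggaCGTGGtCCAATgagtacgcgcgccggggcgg
HYOU1 match at 119057360: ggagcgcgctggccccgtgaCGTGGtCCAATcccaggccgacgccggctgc
SDF2L1: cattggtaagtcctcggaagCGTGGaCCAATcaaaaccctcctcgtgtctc

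Genes with the same element differed in the size of their change. HSPA5 holds 1 ERSE match and HSP90B1 holds 2, with log2 fold changes of -0.31 and -0.05, and the 6 genes with it had a median of -0.32 against -0.29 for the other genes with a window. Outside the 54 genes, 21 tested genes hold an ERSE or ERSE-II, and of these 7 were lower, 6 higher and 8 not called, with a median of 0.07. Of the 9 among the 54 genes, 8 were lower, none was higher, and the median was -0.33. This was close to the list itself, in which 37 of the 54 (68.5%) were lower with a median of -0.30. HERPUD1 also holds TTGCATCA, the composite site of ATF4 and C/EBP factors, as the only gene of the 48 (2.08%, against 0.706% of tested genes). The core TGACGTGG, which XBP1 and ATF6 bind, was in SEC62, SSR3, SSR4, SRP19 and HYOU1 (10.4% against 1.17% of tested genes), of which 3 were lower, SEC62 was higher and SRP19 was not called. CCAAT alone, which is part of the ERSE, was in 33 of the 48 genes (68.8%) and in 43.6% of tested genes. A match of these letters is a description of the sequence and not a measured site.

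The guide strand of the hairpin can also pair with other transcripts through its seed, so the 3′ UTRs were searched for it. The hairpin targets 19 bases of DAGLA, and the guide strand, taken here as the reverse complement of the study's target sequence, is shown with its seed (bases 2 to 8) in capitals, followed by the matches in the 54 genes, read from GENCODE release 29 (GRCh38) with 10 bases on each side and the seed match GCCTTCA in capitals. They lie in the 3′ UTRs of RPN1 (chr3:128620279-128620305, minus strand), ERN1 (chr17:64043548-64043574, chr17:64043170-64043196 and chr17:64043132-64043158, minus strand), CANX (chr5:179729898-179729924, plus strand) and SEC63 (chr6:107869612-107869638, minus strand).
guide: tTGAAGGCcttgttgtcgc
RPN1: tctgtaaaagGCCTTCAaggaagagaa
ERN1 site at 64043558: accaagtacaGCCTTCActggagaccg
ERN1 site at 64043180: gagttccctgGCCTTCAaggagagcag
ERN1 site at 64043142: acaggggccaGCCTTCAggaccagagg
CANX: tatattttaaGCCTTCAtttgcaattc
SEC63: aaagaactgaGCCTTCAgttgatagtt

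TUSC3 holds a match as well, which makes 5 of the 54 genes (9.26%), against 14.6% of the 11187 tested genes with a 3′ UTR. RPN1, ERN1 and CANX were lower, SEC63 was higher and TUSC3 was not called. Both RPN1 and ERN1, among the 3 genes lower by at least 2-fold, hold the match. The run shared with the hairpin target extends over 11 bases in RPN1 and 10 in TUSC3. It is 7, 9 and 7 bases at the sites of ERN1, and 7 in CANX and in SEC63. The 3′ UTRs of RPN1 and ERN1 are 441 and 4846 bases long, against a median of 1390 for tested genes. Over all genes lower by at least 2-fold, 39.2% of those with a 3′ UTR hold the match, and over all genes called lower 20.6%. HERPUD1, SSR3, STT3A and SEC61A1 hold none. Of the 49 genes without the match, 34 were lower, and their median log2 fold change was -0.29, against -0.53 for the 5 genes with it. Over all tested genes with a 3′ UTR the median was -0.04 with the match and 0.11 without. The part of the match in the fall of RPN1 and ERN1 was not tested.

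Of 158 other genes of the same pathways, taken from 10 lists of ER entry, glycosylation, folding, degradation and export genes, 152 were tested. Of these 72 (47.4%) were lower and 45 (29.6%) were higher, and the median of their log2 fold changes was -0.09. Over all genes tested 23.8% were lower and 36.1% higher, and of those at or above 27.5 FPKM 51.0% were lower. The counts per list below can be read against these shares, but the lists were not matched for level. The list of the PERK and ATF4 arm of the stress response had the lowest median, -0.60, with 9 of 12 genes lower and 2 higher. In it CHAC1, which degrades glutathione, and TRIB3, a pseudokinase that restrains ATF4, were past 2-fold, with log2 fold changes of -1.28 and -1.35. Of the COPII coat and ER exit genes, 12 of 19 were lower and 7 higher, and SEC24D, a cargo adaptor of the coat, had -1.03. Of the 10 genes of the ER membrane protein complex, an insertion route apart from Sec61, 9 were tested, 4 of them higher and 3 lower.

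Among other insertion factors, 5 of 12 were higher and 5 lower. TRAM1, which neighbours the Sec61 channel and helps nascent chains into the membrane, had a larger fall than any of the 54 genes, from 141, 146 and 144 FPKM in Hep3B-Con to 35.1, 36.7 and 35.9 FPKM in Hep3B-KD, with a log2 fold change of -2.00 ± 0.0243 (SE, adjusted p = 5.21e-08). The 3′ UTR of TRAM1 also holds a match to the hairpin's seed, and its part was not tested. The 24 genes that build the lipid-linked oligosaccharide, the glycan donor of OST, were balanced, with 6 higher, 6 lower and 12 not called and a median of -0.01. Of the 13 genes of glycan trimming and lectin quality control, 6 were higher and 5 lower. The catalytic subunit of glucosidase II, GANAB, which trims the transferred glycan, rose from 91.8 ± 1.29 to 187 ± 1.95 FPKM (SD, n = 3), with a log2 difference of 1.02 (adjusted p = 1.47e-07). Of the lectins that read its product, CANX and CALR, both were called lower in the same fit.

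Among 29 other folding enzymes tested, 15 were lower and 6 higher. The isomerases PDIA2 and PDIA5 had log2 fold changes of -2.09 and -1.03, while the secreted thiol oxidase QSOX1 was 2.03-fold higher, the same direction as ERO1A. PDIA2 was of low level, with means of 2.99 FPKM in Hep3B-Con and 0.650 FPKM in Hep3B-KD. Its Hep3B-KD values rest on 15, 32 and 24 reads (SE of the log2 change 0.232). Of the remaining ERAD genes 9 of 22 were lower and 7 higher, and of 3 further OST subunits 2 were lower and none was higher. Of 9 further UPR transcription factors and proteases tested, 6 were lower and 2 higher, and CREB3L3, a liver transcription factor held in the ER membrane, rose from 1.02 ± 0.0692 to 4.76 ± 0.285 FPKM (SD, n = 3), with a log2 fold change of 2.12.

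**Figure D5:**
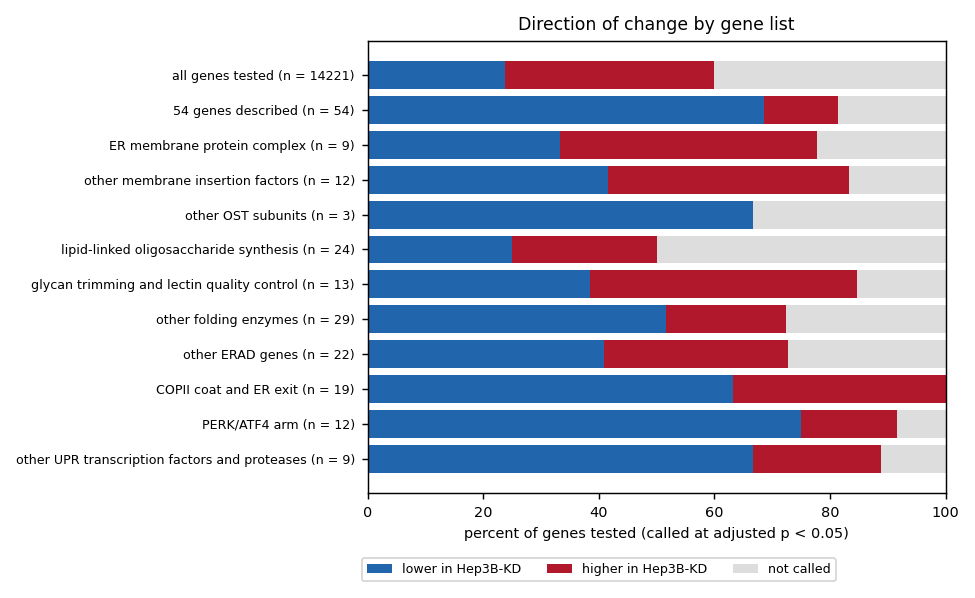
Percent of genes tested that were lower (blue), higher (red) or not called (grey) at an adjusted p under 0.05, for all genes tested, the 54 genes described and the 10 lists of other pathway genes, with the number tested beside each name. The blue bar covers 23.8% of all genes, 68.5% of the 54 genes and 75.0% of the PERK/ATF4 list.

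Reads of some of the 54 genes may be shared with near-identical copies. Annotated pseudogenes of PDIA3, SRP9, SPCS2 and SRP68 carried summed mean levels of 7.35, 6.38, 4.87 and 2.09 FPKM, against 142, 256, 27.4 and 23.3 FPKM for the parent genes in Hep3B-Con. Of the exon length of PDIA6 and DDOST, 25.2% and 15.7% overlaps ATP6V1C2 and PINK1-AS, both at low levels of 0.202 and 1.02 FPKM, and 7.24% of that of SYVN1 overlaps FAU, with 24.6 FPKM.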

How the data were processed

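The 6 libraries were assigned to Hep3B-Con and Hep3B-KD from their sample titles. The authors deposited FPKM values for 29908 Ensembl genes in 1 table with 1 column per library, and the table held 0 other value columns. The submitters' processing notes name TopHat2 2.0.12, Bowtie2 2.0.6 and GRCh37, whereas with the exon lengths of GENCODE release 29 (GRCh38) 100% of the values gave whole reads (tolerance 0.01). The counting program is not given in the sources used here. Depth, 15861039 to 17572714 recovered reads, limits counting error only.

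Values were analysed as log2(FPKM + 0.1) for genes whose mean reached 0.5 FPKM, with limma 3.58.1 (trended eBayes, two-sided) in R 4.3.3 and p-values adjusted by Benjamini-Hochberg across the 14221 genes tested. The scale understates changes of low genes. The fit was checked on simulated reads in which few genes changed, as many up as down. That check does not cover the scaling of these libraries, in which most genes were called. Identifiers were matched by Ensembl ID, and 382 rows share a symbol. Other steps used Python 3.11.15, pandas 2.3.3, scipy 1.17.1 and matplotlib 3.10.9. Promoter windows came from RefSeq (GRCh38.p14), and 3′ UTRs from protein-coding transcripts of GENCODE. For 11 genes several windows were searched.

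The 54 genes, the pathway lists and the tests were chosen with earlier results of these data known. Values in every library are given for genes past 2-fold, the study's picks and the largest rise or fall of each role, with a few more chosen after their values were seen. Other pathway genes are named where past 2-fold without overlap. Same-numbered libraries did not deviate together (correlations -0.0134, -0.0656 and -0.0011), so the numbers were not used as pairs. Alternatives were other filters, pseudocounts, scalings and variance models, the replicate block, voom on recovered reads and leaving out each library.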

Additional observations from a re-analysis of the deposited data

How the results depend on the processing

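Under 16 alternatives, 38 of the 54 genes kept their direction and call, and 47 their direction. The number lower ranged from 33 to 42, and the number higher from 6 to 9 except under quantile normalization, which gave 14. Past 2-fold there were 3 genes, and 4 when centred on the median log ratio. Centring reversed SRP9 (-0.041), SRP54 (-0.048), RPN2 (-0.088), DDOST (-0.101) and MAGT1 (-0.0185), and quantile normalization reversed SRP14 (0.0786) and HSP90B1 (0.134). Quantile normalization also ended the calls of CALR (-0.0539) and PDIA6 (-0.102), centring that of STT3B (0.0205), and rescaling to the same FPKM sum those of SRP14, HSP90B1, DNAJC3 and ATF6. The share of all genes called higher and lower was 28.6% and 30.3% with centring and 30.0% and 27.4% with quantile normalization, against 36.1% and 23.8%. The cause was not tested. voom on recovered reads gave 40 lower and 8 higher.

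Leaving out each library in turn gave 34 to 35 lower, 7 to 8 higher and 3 past 2-fold. SRP14 was not called without Hep3B-Con replicate 2 or 3 or Hep3B-KD replicate 2 or 3, HSP90B1 without Hep3B-Con replicate 1 or 2 or Hep3B-KD replicate 2 or 3, and DNAJC3 and ATF6 without any of the Hep3B-Con replicates or Hep3B-KD replicate 1 or 2. In a fit with a replicate block, 33 were lower and 7 higher, and SRP14, HSP90B1, DNAJC3 and ATF6 were no longer called. The block gave 44 higher and 67 lower among the other pathway genes, against 45 and 72. The numbers do not show shared cultures.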
